A study of Mus musculus with 9 samples.

Results

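Interferon-inducible GTPase genes are described here across 9 RNA sequencing libraries of mouse CD8+ T cells: Gbp2, Gbp3, Gbp4, Gbp5, Gbp6, Iigp1, Irgm1, Igtp and Ifi47. They were taken by symbol from a list of 9, and all 9 were found among the 20418 gene symbols of the count tables, with 11 of the 24373 transcripts. A symbol with several transcripts is represented by the one with the most reads on average. All 9 passed the filter on low counts that left 13479 genes for testing, and none shared its counts with another symbol. The cells were splenic CD8+ T cells of female C57BL/6 mice aged 6 weeks. One group was untreated, and the other 8 received either IL-2 or IL-15 (interleukins that act as T cell growth factors), each given at a dose of 1 nM or 500 nM and read after 4 h or 24 h. RNA of 3 samples treated alike was pooled for each library, so each of the 9 conditions had 1 library and none was repeated. The labels name no sorting step or culture medium for the cells.

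Interferon-inducible GTPases are large GTP-binding proteins that cells make in response to interferons and that attack the membranes around intracellular bacteria and parasites. The guanylate-binding proteins (GBPs) assemble on such membranes and can open them. The immunity-related GTPases (IRGs) comprise effectors, such as Iigp1 (Irga6) and Ifi47 (Irgd), and regulators, such as Irgm1 and Igtp (Irgm3), which sit on the cell's own membranes and keep the effectors inactive there. Interferon gamma, which activated CD8+ T cells secrete, raises the transcription factor IRF1, among others, and type I interferons act in part through STAT2 and IRF9. DNA elements called GAS lie near many genes that interferon gamma switches on, and IRFs bind elements called ISRE. IL-2 and IL-15 share receptor chains and signal mainly through STAT5. Irgm1 is also known for its part in keeping lymphocytes alive after activation.

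The names follow the deposited tables, which use mm8 of the mouse genome, and among the members differ from current RefSeq at one point. The transcripts listed as Gbp6 are on chromosome 3 and are RefSeq's Gbp7, whereas the gene now called Gbp6 is on chromosome 5 and is listed as Mpa2l. Names of some related genes differ too, since the listed Gbp1 is RefSeq's Gbp2b and the listed Tgtp is RefSeq's Tgtp1. Gbp2, Gbp3, Gbp5 and the listed Gbp6 lie in 1 cluster on chromosome 3, in the RefSeq order Gbp5, Gbp7, Gbp3, Gbp2b, Gbp2. Gbp4 lies on chromosome 5 between Gbp9 and Gbp10. Igtp lies on chromosome 11 between Gm12250 and Irgm2. Ifi47 and Irgm1 are at other places on chromosome 11, Ifi47 beside the Tgtp genes. The family holds near copies, and how reads with several matches were treated is not given in the sources used here. Among 50-base words of GENCODE transcripts, 12.8% of those of Gbp4, 12.8% of those of the listed Gbp6 and 12.3% of those of Igtp also occurred in another gene, for Igtp always Irgm2. The share was 0.898% to 4.88% in the other 6 genes. For the listed Gbp6 the gene sharing most was Gm43802, with 10.6%. Counts of Gbp4, Gbp6 and Igtp are therefore uncertain, and the size of the error was not measured for these or for the other 6 genes.

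Because the genes moved together, the 250 bases before the start sites of the members were searched for the GAS letters TTCNNNGAA, which read alike on both strands, and for the ISRE letters, GAAA then 2 bases of any kind then GAAA, on both strands. Sequences are RefSeq promoter windows of build GRCm38.p6, with GAS and ISRE matches in capitals and each read toward the gene. Windows were found for 7 of the 9 genes, not for Gbp4 and Iigp1. Of these, 4 are shown, for an ISRE alone (Gbp2), for GAS and ISRE far apart (Gbp5), for both side by side (Igtp) and for 2 overlapping ISRE matches (Irgm1). They are chr3:142620413-142620662, chr3:142496684-142496933 and chr11:58199306-58199555 on the plus strand and chr11:48871421-48871670 on the minus strand.
Gbp2: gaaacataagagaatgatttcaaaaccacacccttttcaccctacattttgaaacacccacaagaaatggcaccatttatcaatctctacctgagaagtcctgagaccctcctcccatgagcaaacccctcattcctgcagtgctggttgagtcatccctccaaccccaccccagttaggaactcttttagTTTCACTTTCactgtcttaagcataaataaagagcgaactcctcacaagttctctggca
Gbp5: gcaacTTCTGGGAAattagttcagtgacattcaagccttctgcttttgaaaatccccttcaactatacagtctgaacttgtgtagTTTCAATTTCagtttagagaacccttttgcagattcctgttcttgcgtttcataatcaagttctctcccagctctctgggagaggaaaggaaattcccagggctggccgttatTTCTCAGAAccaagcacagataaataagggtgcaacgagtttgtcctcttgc
Igtp: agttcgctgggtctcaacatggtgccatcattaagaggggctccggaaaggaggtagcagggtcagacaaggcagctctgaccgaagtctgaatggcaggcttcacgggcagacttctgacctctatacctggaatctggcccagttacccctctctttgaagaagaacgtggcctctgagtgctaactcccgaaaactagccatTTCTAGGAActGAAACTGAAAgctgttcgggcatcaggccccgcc
Irgm1: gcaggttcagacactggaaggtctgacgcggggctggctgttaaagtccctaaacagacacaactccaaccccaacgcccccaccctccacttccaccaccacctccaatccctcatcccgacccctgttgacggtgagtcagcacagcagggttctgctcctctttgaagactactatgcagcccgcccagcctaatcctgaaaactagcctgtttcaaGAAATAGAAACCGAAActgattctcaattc
An ISRE match was present in 6 of the 7 genes, all but Ifi47, against 2.98% of 32851 promoter windows of that length in the mouse genome. It began 59 bases before the start in Gbp2, 165 in Gbp5 and 34 in Igtp. The pairs of overlapping matches began 30 and 24 bases before the start in Irgm1, and 45 and 39 in Gbp3. A GAS match was present in 3 of the 7, namely Gbp5, Gbp6 and Igtp, against 7.02% of windows, and both elements together occurred in 0.332% of windows. In Igtp the GAS ended 2 bases before the ISRE. The same spacing stood in Irgm2 and in the Tgtp genes, and Gm12250 had 6 bases between the elements. All are IRGs outside the list whose levels are given further on, and their stretches are shown beside that of Igtp to compare the arrangement.
Igtp: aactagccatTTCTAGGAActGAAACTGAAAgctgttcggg
Irgm2: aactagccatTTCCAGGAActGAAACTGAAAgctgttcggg
Tgtp: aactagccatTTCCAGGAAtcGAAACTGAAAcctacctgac
Tgtp2: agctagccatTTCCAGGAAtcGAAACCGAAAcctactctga
Gm12250: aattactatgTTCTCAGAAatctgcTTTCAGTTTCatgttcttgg
A GAS and an ISRE within 10 bases of each other occurred in 14 of the 32851 windows, which is 0.0426%. A match describes letters, not binding, and no match says only that these letters are not in the window. The bases just after the start were found in the GENCODE transcript of the gene for Gbp2, Gbp5 and Igtp. They were not found for Gbp3, Gbp6, Ifi47 and Irgm1, so the start, and distances to it, are less certain in those genes.

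The 9 genes spanned a wide range of levels within each library. Levels of different genes are compared here as RPKM, a read count divided by exon length and by the reads of the library, as deposited. Igtp had the highest RPKM of the 9 in every library, from 115.8 RPKM in untreated cells to 1857 RPKM with IL-15 at 500 nM for 4 h, and held 46.6% to 58.9% of their summed RPKM. Gbp2 and Ifi47 took the next places in every library. The lowest was Iigp1 in untreated cells (0.0800 RPKM) and in 3 of the 4 libraries at 1 nM, and Gbp5 in the other 5 libraries. Iigp1 stood at 27.0 RPKM with IL-15 at 500 nM for 4 h, just above Irgm1 at 26.5 RPKM. Together the 9 genes took 0.0731% of all counts in untreated cells and 1.26% with IL-15 at 500 nM for 4 h. Library depth ran from 27158143 counts (IL-15, 1 nM, 4 h) to 48799962 counts (IL-2, 1 nM, 24 h).

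Libraries are compared below as CPM, counts scaled to the size of the library by the TMM method. Gbp2, a GBP that coats parasite vacuoles, stood at 85.1 CPM without cytokine. After IL-2 it was at 151 and 472 CPM at 1 nM (4 h, 24 h) and at 1827 and 1016 CPM at 500 nM. With IL-15 it was at 119 and 96.7 CPM at 1 nM and at 3230 and 888 CPM at 500 nM. All 4 libraries at 500 nM lay above all 4 at 1 nM, the 4 h libraries were the higher of the 500 nM pairs, and IL-2 at 1 nM for 24 h stood above the other 3 libraries at 1 nM. Gbp3 was at 47.7 CPM untreated. In the same order it was at 83.4, 172, 429 and 195 CPM with IL-2 and at 99.0, 50.3, 597 and 173 CPM with IL-15. Here the ranges of the doses came within 1 CPM of each other, from IL-2 at 1 nM for 24 h to IL-15 at 500 nM for 24 h. Gbp4 was at 45.2 CPM untreated. It was at 92.4, 171, 504 and 303 CPM with IL-2 and at 79.9, 48.8, 873 and 308 CPM with IL-15. Its order of libraries was close to that of Gbp2, without overlap between the doses. Gbp6 was at 53.4 CPM untreated. It was at 64.5, 200, 455 and 245 CPM with IL-2 and at 67.1, 59.0, 758 and 232 CPM with IL-15. At 4 h and 1 nM it was little above untreated with either cytokine. Gbp5, a GBP known for its part in inflammasome activation, was at 1.61 CPM untreated (50 counts, exact 95% Poisson interval 1.20 to 2.13 CPM, counting error only). It was at 3.28, 3.05, 19.1 and 5.84 CPM with IL-2 and at 3.51, 1.63, 36.8 and 5.58 CPM with IL-15. It showed the narrowest margin of all GBPs between 1 nM and untreated at 24 h with IL-15.

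Among the IRGs, Iigp1, an effector that loads onto parasite vacuoles, was lowest at the start. It had 12 counts in untreated cells, 0.387 CPM with an interval of 0.200 to 0.677 CPM. It was at 1.96, 12.9, 53.6 and 48.5 CPM with IL-2 and at 1.81, 1.16, 127 and 43.7 CPM with IL-15. It spanned the widest range of the 9 genes. Ifi47 was at 159 CPM untreated. It was at 399, 629, 1184 and 669 CPM with IL-2 and at 396, 261, 1692 and 765 CPM with IL-15. Its libraries at 500 nM and 1 nM were also apart, by a small margin with IL-2 at 24 h. Of the regulators, Igtp was at 363 CPM untreated. It was at 785, 2125, 5374 and 2584 CPM with IL-2 and at 861, 427, 5664 and 2738 CPM with IL-15. At 500 nM for 4 h the cytokines were nearly level for Igtp. Irgm1 was at 5.10 CPM untreated. It was at 15.3, 46.9, 51.3 and 46.7 CPM with IL-2 and at 9.74, 11.6, 89.0 and 60.7 CPM with IL-15. For Irgm1 the doses overlapped, since IL-2 gave nearly the same level at 1 nM and 500 nM after 24 h.

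**Figure D1:**
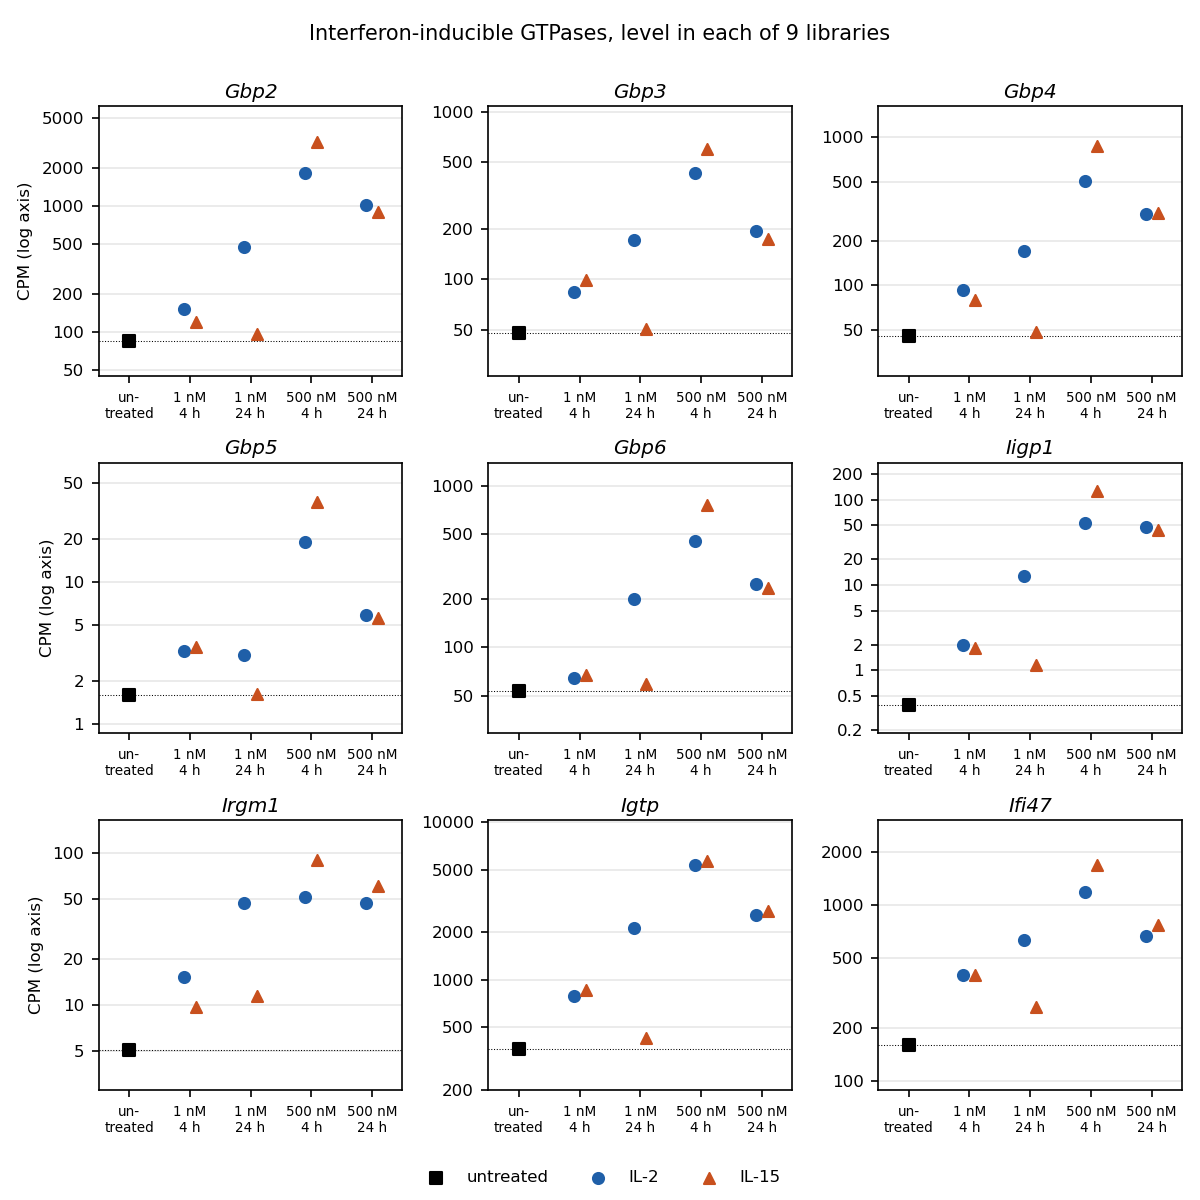
Level of each gene in CPM on a log axis, 1 panel per gene, for the untreated library (square, dotted line) and for IL-2 (circles) and IL-15 (triangles) by dose and time; each point is 1 library of pooled RNA. IL-15 at 500 nM for 4 h is the highest point in all 9 panels, untreated the lowest, and IL-2 at 1 nM for 24 h stands above IL-15 in all 9.

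All 9 genes were highest with IL-15 at 500 nM for 4 h, a place held by 12.6% of all genes tested, and lowest in untreated cells, as were 20.4% of all genes. For Gbp3, Gbp4 and Gbp5 the untreated level was within counting error of that with IL-15 at 1 nM for 24 h. In 8 of the 9, all but Irgm1, the 4 libraries at 500 nM lay above the 4 at 1 nM, against 8.55% of all genes. For Gbp3 this was within counting error, at 172.9 CPM with IL-15 at 500 nM for 24 h and 172.3 CPM with IL-2 at 1 nM for 24 h.

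The first comparison asked how the dose of cytokine acted, over both cytokines and times. All 9 GTPases rose at 500 nM against 1 nM by the quasi-likelihood test of edgeR, adjusted over all genes by the method of Benjamini and Hochberg, which called 16.1% of genes, 7.63% upward. The median log2 fold change of the 9 was 2.11, beside -0.03 for all genes tested. Iigp1 rose most, with a log2 fold change of 4.29 ± 0.88 (SE; adjusted p = 0.0136), and Gbp2 followed at 3.13 ± 0.65 (adjusted p = 0.0142). Ifi47 rose least, at 1.30 ± 0.34 (adjusted p = 0.0319). No condition had a second library, so the error is the departure of the treated libraries from added effects of cytokine, dose and time. The untreated library had its own term and does not enter it. A dose effect that differs between times or cytokines therefore counts as error here, and part of the error may be technical. The highest adjusted p of the 9 was 0.0427 (Irgm1), and the count fell below 9 when 1 of 6 libraries was left out. It was then 2 without IL-2 at 1 nM for 4 h, 4 without IL-15 at 1 nM for 4 h or for 24 h, 5 without IL-2 at 500 nM for 4 h, 6 without IL-15 at 500 nM for 24 h and 8 without IL-15 at 500 nM for 4 h.

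At 4 h the dose difference was large for every member. All 9 rose, with log2 fold changes from 1.87 ± 0.33 (Ifi47; adjusted p = 0.00311) to 5.69 ± 0.84 (Iigp1; adjusted p = 0.00104). In this comparison edgeR called 10.1% of genes, 5.42% upward. The GBPs rose by 2.50 (Gbp3) to 4.32 (Gbp2) on the log2 scale, and the regulators Igtp and Irgm1 by 2.74 and 2.56. The count was 5 without IL-2 at 1 nM for 4 h, 6 without IL-15 at 500 nM for 4 h and 8 without IL-15 at 1 nM for 4 h. At 24 h 4 of the 9 rose, where 31.2% of genes were called and 15.6% rose. These were Iigp1 at 2.87 ± 0.74 (adjusted p = 0.0108), Gbp2 at 1.89 ± 0.50 (adjusted p = 0.0127), Gbp4 at 1.55 ± 0.43 (adjusted p = 0.0161) and Gbp5 at 1.27 ± 0.43 (adjusted p = 0.0417). The other 5 had log2 fold changes of 0.72 to 1.23 that did not pass. Under IL-2 alone the ratio of 500 nM over 1 nM at 24 h was 0.996 (Irgm1) to 3.77 (Iigp1), with a median of 1.23. With IL-15 alone it was 2.93 (Ifi47) to 37.8 (Iigp1), with a median of 5.25. The count at 24 h turned on single libraries. Without IL-2 at 1 nM for 24 h all 9 passed, and Igtp went from 1.23 to 2.69 and Irgm1 from 1.00 to 2.30. It was 1 without IL-15 at 1 nM for 24 h and 2 without IL-15 at 500 nM for 24 h, and DESeq2 called 2, Iigp1 and Gbp5.

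**Figure D2:**
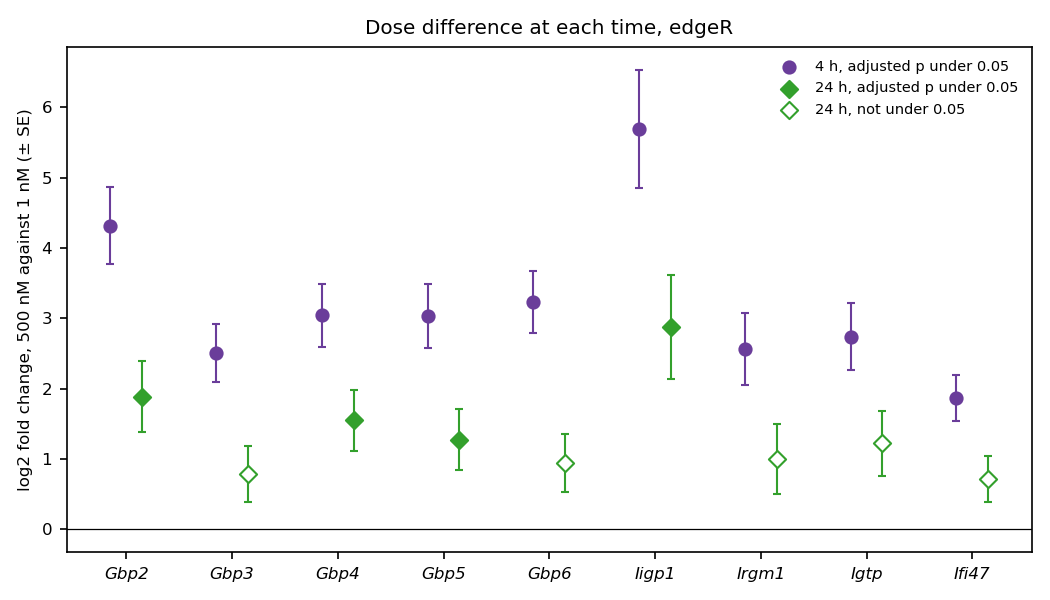
Log2 fold change of 500 nM against 1 nM with its standard error for each gene at 4 h (circles) and at 24 h (diamonds), from edgeR; filled symbols have an adjusted p under 0.05. All 9 genes are filled at 4 h, 4 are filled at 24 h, and each 24 h point lies below its 4 h point.

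The dose difference was smaller at 24 h than at 4 h in all 9 genes, and 2 of these differences passed the test of the dose by time interaction. The interaction was -2.43 ± 0.68 for Gbp2 (adjusted p = 0.0459) and -2.29 ± 0.58 for Gbp6 (adjusted p = 0.0297), where 8.81% of all genes were called and 4.76% downward. The other 7 ranged from -1.15 (Ifi47) to -2.82 (Iigp1), with unadjusted p under 0.05 and adjusted p from 0.0789 to 0.188. DESeq2 called neither, and neither stood without each library in turn. No member passed without IL-2 at 1 nM for 24 h, where Gbp2 went to -0.86 and Gbp6 to -1.03, nor without any 1 of IL-2 at 1 nM for 4 h, IL-2 at 500 nM for 24 h and IL-15 at 1 nM for 4 h or 500 nM for 4 h or 24 h. All 9 passed without IL-15 at 1 nM for 24 h, 3 passed without IL-2 at 500 nM for 4 h, and 1 passed without the untreated library.

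At 500 nM every gene was lower at 24 h than at 4 h with each cytokine. The ratio of 24 h over 4 h was 0.305 (Gbp5) to 0.910 (Irgm1) with IL-2 and 0.152 (Gbp5) to 0.682 (Irgm1) with IL-15. By the test 5 genes fell, namely Gbp2, Gbp3, Gbp5, Gbp6 and Ifi47, where 26.3% of genes were called and 12.9% fell. Gbp5 fell by 2.28 ± 0.44 on the log2 scale (adjusted p = 0.00253) and Gbp3 by 1.51 ± 0.40 (adjusted p = 0.0143). Gbp4 was at -1.21 (adjusted p = 0.0518), Igtp at -1.05, Iigp1 at -1.07 and Irgm1 at -0.41, and these did not pass. DESeq2 called 1, Gbp5. The count by edgeR was 0 without IL-15 at 500 nM for 4 h, 1 without the 24 h library of either cytokine at 500 nM and 3 without the 4 h library of either cytokine at 1 nM. It was 6 without IL-2 at 500 nM for 4 h, and 7 without either of the 24 h libraries at 1 nM.

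At 1 nM the values of 24 h against 4 h differed between the cytokines, in single libraries with no test of a pair. With IL-2 the ratio of 24 h over 4 h was 0.928 (Gbp5) to 6.55 (Iigp1), above 1 in 8 of 9 genes, and 6 were at least 2-fold higher, as were 12.5% of all genes. With IL-15 it was 0.466 (Gbp5) to 1.19 (Irgm1), below 1 in 8 of 9, and 2 were at least 2-fold lower, as were 8.32% of all genes. Over both cytokines no member passed for time at 1 nM by edgeR or DESeq2, where edgeR called 2.89% of genes and 3 members had an unadjusted p under 0.05. How many members passed for time at 1 nM changed without IL-15 at 1 nM for 24 h, which leaves a single library at that dose and time. Over both doses no member passed for time by edgeR, where 5.30% of genes were called and 1 member, Gbp5, had an unadjusted p under 0.05, and DESeq2 called it lower at 24 h (adjusted p = 0.0148). Without IL-2 at 1 nM for 24 h, 5 passed.

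Against untreated cells, all 9 rose at 500 nM at both times. At 4 h the log2 fold changes ran from 3.19 ± 0.46 (Ifi47; adjusted p = 0.000658) to 7.96 ± 1.35 (Iigp1; adjusted p = 0.00178), where 16.4% of genes were called and 7.92% rose. At 24 h they ran from 1.82 ± 0.58 (Gbp5; adjusted p = 0.0369) to 6.89 ± 1.30 (Iigp1; adjusted p = 0.00251), where 25.2% were called and 12.8% rose. The count of 9 at 4 h stood without each treated library in turn, and at 24 h Gbp5 was lost without any 1 of 5 libraries, which left 8. DESeq2 also called 8 at 24 h, not Gbp3 (1.92 ± 0.90, adjusted p = 0.0888). With IL-15 at 1 nM for 24 h the exact Poisson intervals of Gbp3, Gbp4 and Gbp5 overlapped those of untreated cells. By value, at 1 nM all 9 were above untreated in every library, as were, in each single library, 49.8% and 50.8% of all genes with IL-2 (4 h, 24 h) and 49.1% and 49.3% with IL-15. None passed at 4 h, where 6.31% of genes were called, or at 24 h, where 1.65% were. DESeq2 also called none, and 1 member at 4 h and 8 at 24 h had an unadjusted p under 0.05. At 24 h the mean hides unlike libraries, since 8 passed without IL-15 at 1 nM for 24 h, while without IL-2 at 1 nM for 24 h Gbp3 stood at -0.01 and Gbp5 at -0.15. At 4 h 4 passed without either of those libraries. The untreated group was 1 library, and time in culture cannot be told apart from cytokine in these comparisons.

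The series asks how IL-2 and IL-15 differ, and the GTPases gave unlike answers by dose and time. At 1 nM for 4 h the ratio of IL-15 over IL-2 was 0.636 (Irgm1) to 1.19 (Gbp3), and no member differed 2-fold, where 5.84% of all genes were higher and 8.21% lower by that much. At 1 nM for 24 h all 9 genes were lower with IL-15. The level with IL-2 was 1.86-fold (Gbp5) to 11.1-fold (Iigp1) that with IL-15, with a median of 3.52-fold, and 8 genes were at least 2-fold lower with IL-15, as were 9.05% of all genes. Gbp2 was at 472 CPM with IL-2 and 96.7 CPM with IL-15, and Igtp at 2125 and 427 CPM. At 500 nM for 4 h all 9 were higher with IL-15, by 1.05-fold (Igtp) to 2.37-fold (Iigp1), and 1 was at least 2-fold higher, where 7.60% of all genes were. At 500 nM for 24 h the ratio was 0.874 (Gbp2) to 1.30 (Irgm1), with no 2-fold difference, where 3.99% of all genes were higher and 3.65% lower. These are single libraries, with no replicate check.

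**Figure D3:**
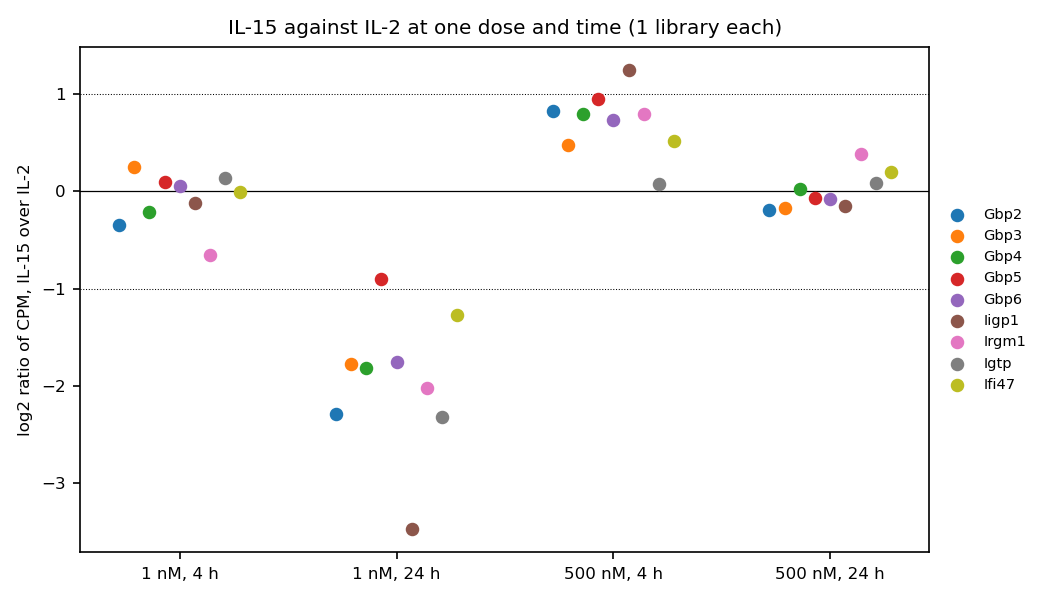
Log2 ratio of CPM with IL-15 over IL-2 for each gene in the 4 matched pairs of libraries; dotted lines mark 2-fold. At 1 nM for 24 h all 9 points lie below 0 and 8 below the 2-fold line, at 500 nM for 4 h all 9 lie above 0, and the other pairs lie around 0.

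Tests over pairs of libraries did not call a cytokine difference. In these tests a dose effect that changes with time counts as error, so real differences could be missed. The lack of a call does not show equal levels. Over all doses and times, edgeR called no gene between IL-15 and IL-2 (0% of 13479), with 125 genes and no member at an unadjusted p under 0.05, and DESeq2 called 2 genes. At 1 nM it called none, with 193 genes and 4 members at an unadjusted p under 0.05, and DESeq2 called 7 genes, no member among them. Log2 fold changes of the members at 1 nM ran from -0.53 ± 0.60 (Gbp5) to -2.34 ± 0.90 (Iigp1), all with adjusted p = 1. Without the library of IL-2 at 1 nM for 24 h, 6 of the 9 turned to values above 0, from 0.05 (Gbp2) to 0.51 (Gbp5), while Gbp4 was at -0.07, Iigp1 at -0.05 and Irgm1 at -0.44. At 500 nM edgeR called none, with 81 genes and no member at an unadjusted p under 0.05, and DESeq2 called 5. The members ran from 0.08 ± 0.56 (Igtp) to 0.74 ± 0.79 (Iigp1), and without IL-15 at 500 nM for 4 h all 9 turned negative, from -0.01 (Irgm1) to -0.77 (Gbp2). A cytokine by dose term, tested after the pattern had been seen, called none (151 genes and 3 members at an unadjusted p under 0.05; DESeq2 called none), with values from 1.11 (Gbp5) to 3.08 (Iigp1).

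The other interferon-inducible GTPases were taken from a list of 22 symbols, of which 15 were in the tables and 14 were tested. For dose 7 of the 14 rose and none fell, where 7.63% of all genes rose, with a median of 2.09. That count was 1 without IL-2 at 1 nM for 4 h, 3 without IL-15 at 1 nM for 4 h, 4 without the 24 h library of IL-15 at either dose, and 13 when IL-2 at 1 nM for 24 h was left out. Among those that passed, the largest were Gbp1, at 3.09 ± 0.66 (adjusted p = 0.0162), the antiviral Mx1, at 2.85 ± 0.58 (adjusted p = 0.0131), and the IRG Gm12250, at 2.70 ± 0.59 (adjusted p = 0.0174). Without IL-2 at 1 nM for 4 h, Mx1 alone of the 14 passed, and Gm12250 did not pass without IL-15 at 1 nM for 4 h either. At 500 nM for 4 h against untreated 14 of 14 rose, where 7.92% of all genes did. Gm12250 was at 17.9 CPM untreated. It was at 55.0, 191, 552 and 304 CPM with IL-2 and at 55.2, 30.3, 763 and 334 CPM with IL-15 (1 nM at 4 h and 24 h, then 500 nM), an order like that of Igtp. Mx1 was at 11.7 CPM untreated. It was at 19.8, 10.2, 243 and 17.2 CPM with IL-2 and at 30.8, 4.78, 589 and 35.2 CPM with IL-15. Unlike the 9 members, Mx1 was below untreated in both libraries at 1 nM for 24 h. From 4 h to 24 h at 500 nM it fell by 3.97 ± 0.44 on the log2 scale (adjusted p = 8.88e-05). Between IL-15 and IL-2 at 1 nM for 24 h, 12 of the 14 were at least 2-fold lower with IL-15, beside 8 of the 9 members and 9.05% of all genes. In RPKM, Irgm2 stood at 13.2 untreated and 190.5 with IL-15 at 500 nM for 4 h, and shares sequence with Igtp. Tgtp and Tgtp2 stood at 35.9 and 35.4 RPKM untreated and are near copies whose counts cannot be separated with confidence.

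Levels of genes that drive the pathway are given beside those of the GTPases. Ifng, which encodes interferon gamma, was at 1.00 CPM untreated. It was at 1.91, 8.85, 93.1 and 265 CPM with IL-2 and at 0.830, 1.61, 331 and 54.4 CPM with IL-15. At 500 nM it was higher at 24 h than at 4 h with IL-2 and lower with IL-15, whereas all 9 GTPases were lower at 24 h with both. Irf1 was at 656 CPM untreated. It was at 597, 1076, 2759 and 1055 CPM with IL-2 and at 613, 473, 2609 and 1117 CPM with IL-15. Irf1 was below untreated at 1 nM for 4 h with both cytokines and at 1 nM for 24 h with IL-15. In these libraries all 9 GTPases were above untreated, with IL-15 at 24 h Gbp5 by the least. In that library the margin was within counting error for Gbp3, Gbp4 and Gbp5, whose exact Poisson intervals overlapped those of untreated cells. Cish, a direct STAT5 target that dampens cytokine signalling, was at 39.6 CPM untreated. It was at 152, 156, 1626 and 1115 CPM with IL-2 and at 268, 36.5, 1192 and 1013 CPM with IL-15. At 1 nM for 24 h Ifng, Irf1 and Cish were all lower with IL-15 than with IL-2, as were the 9 GTPases.

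**Figure D4:**
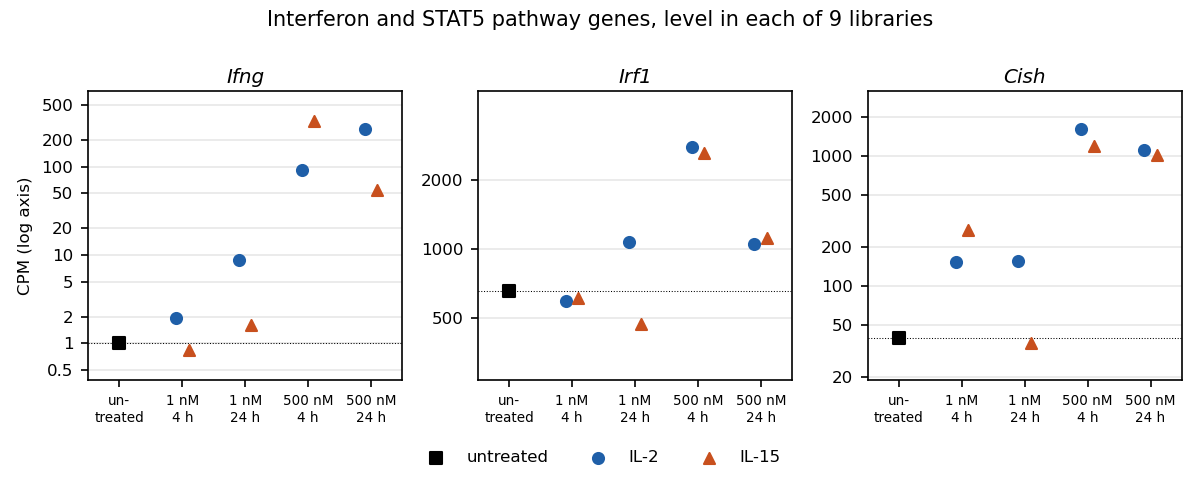
Level of Ifng, Irf1 and Cish in CPM on a log axis, drawn as for the GTPases, 1 point per library. IL-2 at 1 nM for 24 h lies above IL-15 in all 3 panels, and Ifng at 500 nM for 24 h is at 265 CPM with IL-2 and 54.4 CPM with IL-15.

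Of 15 genes of interferon gamma signalling 5 rose and 3 fell at 500 nM against 1 nM, with a median of 0.31. Of all genes 16.1% were called in that comparison and 7.63% rose, the background for each list here. The largest rises were Ifng at 6.16 ± 0.90 (adjusted p = 0.00368), the feedback inhibitor Socs1 at 2.31 ± 0.20 (adjusted p = 0.000752) and the transcription factor Irf8 at 2.04 ± 0.20 (adjusted p = 0.000883), and 3 rose without any 1 of 5 libraries. None fell without the 24 h library of either cytokine at 500 nM. Of 12 interferon gamma targets that are not GTPases 7 rose and 1 fell, with a median of 1.34, among them the immunoproteasome subunits Psmb8 and Psmb10. That count of 7 was 1 without IL-2 at 1 nM for 4 h, 2 without either IL-15 library at 1 nM, 3 without IL-2 at 500 nM for 4 h, and 4 without either IL-2 at 500 nM for 24 h or IL-15 at 500 nM for 4 h. Of 7 genes of type I interferon signalling 3 rose, namely Usp18, Stat2 and Irf7, and Stat2 did not pass without any 1 of 3 libraries at 1 nM (IL-2 at 4 h, IL-15 at either time). Of 18 type I interferon targets 17 rose, with a median of 2.22, led by Ifi44 at 3.27 ± 0.38 (adjusted p = 0.00155) and Isg15 at 3.12 ± 0.37 (adjusted p = 0.00166). Of 10 IL-2 and STAT5 targets 9 rose. Over time at 500 nM the median ratio of 24 h over 4 h was 0.556 with IL-2 and 0.343 with IL-15 for the 9 members, and 0.350 and 0.203 for the type I interferon targets. At 1 nM for 24 h the median ratio of IL-15 over IL-2 was 0.284 for the members, 0.541 for the other interferon gamma targets and 0.673 for the type I targets. These are descriptions, and differences between lists were not tested.

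The mean profile of the 9 genes over the 9 libraries was compared with 9763 other genes of sufficient count. The 10 most alike by Pearson's r, over 9 libraries that share the design, were Gm12250 (0.992), Mpa2l (0.987), Irgm2 (0.986), Gbp10 (0.981), EG634650 (0.981), Cd274 (0.980), Gbp1 (0.980), Oasl2 (0.979), Serpina3n (0.976) and Xaf1 (0.976). At least 5 of the 10 are GTPases of the same families. Irf1 ranked 71 (0.932), Ifng 82 (0.928) and Cish 142 (0.907). Among the members themselves r ran from 0.782 (Gbp5 and Irgm1) to 0.993 (Gbp2 and Gbp4), with a median of 0.959 over 36 pairs.

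In bulk RNA fewer cells of a type and less RNA per cell cannot be told apart, so markers of T cells and of other cell types are given beside the dose comparison. The 10 T cell markers summed to 3455 to 5403 CPM over all libraries, and for dose 2 of them rose and 3 fell. Cd8a, which encodes a chain of the CD8 coreceptor, rose by 0.71 ± 0.15 on the log2 scale (adjusted p = 0.0166), from 393 to 661 CPM at 1 nM to 744 to 985 CPM at 500 nM, and stood at 903 CPM untreated. Cd3d and Cd3g, which encode chains of the T cell receptor complex, and Cd5 fell by 0.94, 0.72 and 1.49. Macrophage and monocyte markers (13 of 14 measured) summed to 2154 CPM in the untreated library, to between 312 and 1172 CPM at 1 nM, and to between 41.2 and 238 CPM at 500 nM. The 10 B cell markers summed to 697, 478 to 709 and 208 to 353 CPM in the same order, and the 7 NK cell markers to 188, 52.7 to 82.4 and 19.5 to 37.1 CPM. For these 3 lists the sums at 500 nM lay below those at 1 nM, where the GTPases were lower. The NK cell sum in untreated cells was mostly Tyrobp (94.7 CPM) and Fcer1g (88.4 CPM), the 2 genes of the NK cell list that fell by the test below. A lower sum therefore does not by itself show fewer NK cells. Every other marker of that list was at 2.91 CPM (Klrb1c) or less untreated. Of these, Klra4, Klrk1 and Klra8 had dose values above 0 (0.85, 0.24 and 0.01 on the log2 scale) that did not pass. The sums overlapped between doses for the 8 dendritic cell markers (126, 33.7 to 51.2 and 17.6 to 39.2 CPM), the 4 CD4+ T cell markers (40.6, 31.7 to 40.9 and 22.4 to 37.4 CPM) and the 6 erythroid markers (176, 50.5 to 108 and 8.10 to 86.1 CPM). Among the erythroid markers Hbb-b1 and Hbb-b2 had identical levels in every library, as did Hba-a1 and Hba-a2. The erythroid sum therefore counts the level of each pair more than once. By the test for dose 4 of 13 macrophage, 4 of 10 B cell, 2 of 8 dendritic cell and 2 of 7 NK cell markers fell and none rose, and no CD4+ T cell or erythroid marker passed, where 16.1% of all genes were called. No measured marker of these lists was at 0 in every library. The test for dose within each time was uneven. At 4 h 0 of 13 macrophage, 2 of 10 B cell and 1 of 7 NK cell markers fell, and 1 macrophage marker rose, where 10.1% of all genes were called. At 24 h 11 macrophage, 8 B cell and 2 NK cell markers fell and none rose, where 31.2% of all genes were called. The part of other cells in the levels was not tested. At 1 nM for 24 h macrophage markers summed to 949 CPM with IL-2 and 1172 CPM with IL-15, where the GTPases were lower with IL-15. Marker by marker they were about level, with a median ratio of IL-15 over IL-2 of 1.08. Of 13 markers 0 were at least 2-fold higher with IL-15 and 1 was at least 2-fold lower.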

How the data were processed

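RNA levels were measured in 9 libraries, each made from pooled total RNA of 3 samples, with depths of 27158143 to 48799962 counts. Per the submitters' processing notes, the authors used CASAVA 1.8, Bowtie 0.12.4 and mm8. The deposited tables give raw read counts per RefSeq transcript. They also give RPKM, which the authors computed from the counts, exon length and 1 total per library, per the file headers and the values. How strand and multi-mapping reads were handled is not given in the sources used here.

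Genes were filtered with filterByExpr (minimum count 10, total 15), scaled by TMM and tested on counts with edgeR 4.0.16 in R 4.3.3 (quasi-likelihood, adjusted p under 0.05 over 13479 genes). Cytokine, dose and time were main effects with an untreated term (4 residual degrees of freedom), or a dose by time or cytokine by dose term was added (3). The SE is the log2 fold change divided by the square root of F. Pairs of single libraries have no test (2-fold, the higher at least 20 counts). RPKM was used only to compare levels between genes.

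The members and gene lists were chosen with earlier results of these data known. All members are named, with the 10 genes most like their mean profile (log2 CPM, prior count 1, mean count at least 100) and up to 4 genes per list with the largest dose effect past the threshold, of which the text gives examples. The cytokine by dose term was added after the data were seen. Alternatives were DESeq2 1.42.0, median-of-ratios scaling, no filter, the sum over transcripts, a dose by time term, folds of 1.5 and 3, and leaving out each library. The procedure was tested on simulated data. Protein sequences were not used here. Intervals cover counting error only, since reads carry no molecular identifiers.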

Additional observations from a re-analysis of the deposited data

Results flagged for a closer look

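Gbp2 and Gbp6 stood out because their dose difference itself differed between 4 h and 24 h by a test of the interaction. The dose by time term was -2.43 on the log2 scale for Gbp2 and -2.29 for Gbp6, and DESeq2 called neither. Of all genes 8.81% were called by edgeR, 4.76% downward. The term was below 0 in all 9 members, and at -2.82 it was larger in Iigp1, which did not pass. Both calls depended on single libraries.

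Gbp4, Irgm1 and Ifi47 stood out because IL-15 was below IL-2 in both pairs of libraries at 1 nM and above it in both pairs at 500 nM. Some of these differences were within counting error. Ifi47 was at 396 CPM with IL-15 and 399 CPM with IL-2 at 1 nM for 4 h, and Gbp4 at 308 and 303 CPM at 500 nM for 24 h, with overlapping exact Poisson intervals. The cytokine by dose term was 1.66 for Gbp4 (unadjusted p = 0.0413), 2.12 for Irgm1 (unadjusted p = 0.0135) and 1.13 for Ifi47 (unadjusted p = 0.0827) by edgeR, with an adjusted p of 1 for each. Without the library of IL-2 at 1 nM for 24 h the terms were 0.50, 1.04 and 0.24. With all libraries the term was above 0 in all 9 members, from 1.11 (Gbp5) to 3.08 (Iigp1), so this was not particular to Gbp4, Irgm1 and Ifi47. The share of all genes with the same pattern of pairs was not counted. The pattern was noticed before the term was tested on the same libraries.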

How the results depend on the processing

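No paired analysis was possible because each condition had 1 library, so no replicate number links libraries. Leaving out a library leaves some arms with 1 library, which is assumed to vary like the others. Across 468 values of the members under settings other than leaving out a library, 452 kept their direction and side of the threshold, 12 lost and 4 gained a call, and none reversed. Across 936 values with a library left out, 797 kept both, 77 lost and 36 gained a call, and 26 reversed. For 391 values of other named genes, 358 kept both and 33 lost their call, all in leave-outs. The cause of changes under other settings was not tested.

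By DESeq2 the number of members called was 1 for time, 0 for the dose by time interaction, 2 for dose at 24 h, 1 for time at 500 nM and 8 for 500 nM at 24 h against untreated. Summing over transcripts gave 1 member for the interaction, and a dose by time term gave 1 for time. By DESeq2 the number of all genes called was 3495 for dose (2170 by edgeR), 2126 for time (715), 1792 for dose by time (1188), 827 for time at 1 nM (390), 1359 and 728 for 1 nM at 4 h and 24 h against untreated (850 and 222), 2 for cytokine, and 7 and 5 for cytokine at 1 nM and 500 nM. With a dose by time term edgeR called 4325 genes for dose and 3045 for time, and for the cytokine at 1 nM 2, at 500 nM 1 and by dose 2. In single pairs of IL-15 and IL-2, 1 member differed at least 1.5-fold at 1 nM for 4 h and 6 at 500 nM for 4 h, where 0 differed 3-fold.

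With 1 library left out, members called ranged from 2 to 9 for dose, 0 to 5 for time, 0 to 9 for dose by time, 5 to 9 for dose at 4 h, 1 to 9 for dose at 24 h, 0 to 5 for time at 1 nM, 0 to 7 for time at 500 nM, and 0 to 4 and 0 to 8 for 1 nM at 4 h and 24 h against untreated. All genes called ranged from 927 to 2435 for dose, 82 to 1328 for time, 356 to 1159 for dose by time, 567 to 1561 and 2086 to 4384 for dose at 4 h and 24 h, 73 to 426 and 1565 to 3744 for time at 1 nM and 500 nM, 283 to 1010 and 93 to 305 for 1 nM at 4 h and 24 h against untreated, and 1070 to 2397 and 1800 to 3630 for 500 nM.

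Signs turned with 3 libraries, and single values are given here as the lowest and highest with 1 library left out. Leaving out IL-2 at 1 nM for 24 h gave the value above 0 for Iigp1 in the dose by time interaction (-3.81 to 0.03247). It gave the values below 0 for 1 nM at 24 h against untreated in Gbp3 (-0.0148 to 1.93) and Gbp5 (-0.15 to 1.07). It also gave the values above 0 for the cytokine at 1 nM in Gbp2 (-2.60 to 0.04732), Gbp3 (-1.93 to 0.42), Gbp5 (-1.24 to 0.51), Gbp6 (-2.08 to 0.48), Igtp (-2.33 to 0.15) and Ifi47 (-1.39 to 0.12). In the cytokine by dose term it gave the values below 0 of Gbp3 (-0.25 to 2.10), Gbp6 (-0.10 to 2.46) and Igtp (-0.0686 to 2.41), and -0.0052 in Gbp5 (-0.01705 to 1.74), whose lowest value came without IL-15 at 500 nM for 4 h. Leaving out IL-15 at 500 nM for 4 h gave the values above 0 for time at 500 nM in Iigp1 (-1.96 to 0.44) and Irgm1 (-1.01 to 0.54). It gave the values below 0 for the cytokine at 500 nM in Gbp2 (-0.77 to 1.24), Gbp3 (-0.60 to 0.81), Gbp4 (-0.27 to 1.04), Gbp5 (-0.48 to 1.27), Gbp6 (-0.70 to 1.17), Iigp1 (-0.57 to 1.58), Irgm1 (-0.01389 to 1.11), Igtp (-0.37 to 0.54) and Ifi47 (-0.11 to 0.77). For Igtp the value was also negative without IL-2 at 500 nM for 24 h (-0.27). Depth limited the lowest genes, with 12 counts of Iigp1 and 50 of Gbp5 in untreated cells.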

Other observations

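Loading of GBPs and IRG effectors onto vacuoles depends on the proteins that conjugate ATG8, and Igtp and Irgm1 guard the cell's own membranes against them. Of 10 genes of ATG8 conjugation, 1 rose and 1 fell at 500 nM against 1 nM by edgeR, a share of calls close to the 16.1% of all genes, and DESeq2 called 1 and 3. Atg3, the enzyme that carries ATG8 proteins to lipid, rose by 0.58 ± 0.16 on the log2 scale (adjusted p = 0.0439). Map1lc3b, which encodes an ATG8 protein, fell by 0.97 ± 0.21 (adjusted p = 0.0181). Neither passed without any 1 of 5 libraries (the 24 h library of either cytokine at either dose, or IL-2 at 1 nM for 4 h), and Atg3 did not pass without IL-2 at 500 nM for 4 h. The sum of the 10 genes was 1054 CPM in untreated cells, between 1031 and 1102 CPM with the low dose, and between 728 and 978 CPM with the high dose.

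GBPs also take part in inflammasome activation. Of 6 inflammasome partners none passed for dose by edgeR, with 1 at an unadjusted p under 0.05, and DESeq2 called 1. That gene was Gsdmd, which encodes the pore-forming gasdermin D, at 0.60 ± 0.18 (adjusted p = 0.0540 by edgeR and 0.0140 by DESeq2), named after its value was seen. Casp4, which encodes a caspase that binds bacterial lipopolysaccharide, was at 0.452 CPM untreated and at 9.63 CPM with IL-15 at 500 nM for 4 h, with a dose value of 1.00 ± 0.58 (adjusted p = 0.268 by edgeR). Casp1 stood between 0.427 and 2.02 CPM in all 9 libraries.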
